A study of Mus musculus with 14 samples.

Results

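Mouse bone marrow cells from a sort for haematopoietic stem cells (HSCs) were profiled singly by MARS-Seq on 4 plates named 352W, 353W, 350W and 351W. MARS-Seq sorts 1 cell into each well of a plate and tags every captured transcript with a unique molecular identifier (UMI). The cells whose column names carry the prefix WT on plates 352W and 353W are described here against those on plates 350W and 351W. Cells with at least 500 UMIs were kept, which left 95 WT cells on 352W, 95 on 353W, 95 on 350W and 96 on 351W. These are 381 of the 384 WT wells and of 768 wells in all, since every plate also held cells named KO. Counts were summed over the WT cells of a plate, and levels are in UMIs per 1000000 (CPM). The series compares floxed control mice with mice lacking Phf19, a Polycomb-associated protein. The plates carry no genotype in the labels, no allele or age is given for the WT cells, and nothing states that they are the floxed controls or how many animals a plate represents. All 4 plates are labelled as bone marrow cells depleted of mature lineages and sorted as CD150+CD48-. WT cells of 352W and 353W held 0 and 5 UMIs of Phf19, against 1 and 0 in 350W and 351W.

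The pairs of plates were chosen by levels measured in these same cells, among them those of Flt3, Mpo, Vwf and Cd48, so everything below is a description with no test. Plate and any biological difference between its cells cannot be told apart. Sums over a plate also do not separate fewer cells of a type from less RNA per cell. Immunoglobulin genes were left out, as were 20 other genes seen in over 50% of the cells of 1 plate and under 5% of those of each other plate.

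The adult mouse HSC sits at the top of blood formation, is mostly quiescent, and gives rise to multipotent progenitors that divide more and lose self-renewal. HSCs carry CD150 (gene Slamf1) and the protein C receptor (gene Procr) on their surface, and a share of them carry transcripts of megakaryocytes and platelets such as Vwf. Multipotent progenitors gain the receptor Flt3 and the surface proteins CD34 and CD48, and those biased to granulocytes and monocytes begin to transcribe Mpo, the peroxidase of neutrophil granules.

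The plates differed in ways that touch the results. Totals were 317696 UMIs in 352W and 510791 in 353W, against 311886 in 350W and 394112 in 351W, with a median of 2920, 5006, 3077 and 3806 UMIs per WT cell in that order of plates. Mitochondrial genes took 5.95% and 1.73% of UMIs in 352W and 353W, against 2.65% and 0.625% in 350W and 351W. Ribosomal protein genes took 12.3% and 12.4%, against 13.5% and 13.5%. The immunoglobulin genes left out took 2.05% and 0.386% of UMIs in 352W and 353W, against 0.00481% and 0.00152% in 350W and 351W. They gave at least 1 UMI in 95 of 95 and 94 of 95 WT cells of 352W and 353W, against 5 of 95 and 5 of 96 in 350W and 351W. Immunoglobulin transcripts in nearly every sorted cell moved with the same pairs as the results below, and their part in them was not tested. No cell column was shared between tables, and no columns held identical values.

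The labelled sort could be checked only through transcripts. Slamf1 had 0 and 0 UMIs in WT cells of 352W and 353W, against 4 and 16 in 350W and 351W. Cd48, whose product the sort was meant to lack, had 62 and 24 UMIs in 352W and 353W, in 37 and 10 cells, and none in 350W or 351W. The Cd48 transcript on 352W and 353W goes against the label of those plates. With immunoglobulin UMIs in nearly every well of both, a Cd48 UMI in a well may also come from free RNA, which was not tested, and these cells are therefore called by plate rather than as HSCs.

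For the genes that differed, RefSeq (GRCm38.p6) promoters were searched on both strands for the GATA motif AGATAA, the PU.1 motif GAGGAA and the C/EBP motif TTGCNNAA, in the 250 bases before the gene start. The promoters of Mpo (chr11:87793534-87793783, plus strand) and Procr (chr2:155750967-155751216, plus strand) are shown because Mpo marks the side high in 352W and 353W and Procr the side high in 350W and 351W. Capitals mark the PU.1 motif in Mpo, found 2 times, and the C/EBP motif, on the minus strand, in Procr. The promoters of Flt3 and Cd34, also higher in 352W and 353W, held no match to any of these motifs and are not shown.
Mpo: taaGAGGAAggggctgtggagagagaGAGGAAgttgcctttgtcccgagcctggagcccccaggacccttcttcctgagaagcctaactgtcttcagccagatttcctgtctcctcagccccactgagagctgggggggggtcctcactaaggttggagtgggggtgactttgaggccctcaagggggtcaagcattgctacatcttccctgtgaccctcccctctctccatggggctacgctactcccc
Procr: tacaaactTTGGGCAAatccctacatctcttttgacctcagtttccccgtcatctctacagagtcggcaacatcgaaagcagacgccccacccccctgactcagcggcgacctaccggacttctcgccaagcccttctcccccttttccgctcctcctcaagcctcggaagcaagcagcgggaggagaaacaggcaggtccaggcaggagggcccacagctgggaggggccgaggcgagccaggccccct
The PU.1 motif was in 27.2% of the 103 promoters of genes apart and higher in 352W and 353W, and in 25.3% of the 79 promoters of genes apart and lower, against 22.7% of the 6915 promoters of counted genes and 23.3% of all 32851 promoters. The C/EBP motif was in 4.85% and 11.4% of those promoters, against 6.90% for counted genes and 9.56% of all. The GATA motif was in 5.83% and 6.33%, close to the 5.89% of counted genes, against 9.99% of all. A match is a run of letters and not a bound site.

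A gene was counted when it had 40 or more UMIs over the 4 plates, and was called apart when both 352W and 353W lay at least 2-fold above, or at least 2-fold below, both 350W and 351W. Levels under 3 UMIs in a plate were taken as 3 for this. Of 7924 genes counted, 131 (1.65%) were apart and higher in 352W and 353W, and 87 (1.1%) were apart and lower. Pairs that merely did not overlap were more common, with 1300 genes (16.4%) higher and 1487 (18.8%) lower in both 352W and 353W. The median difference over all counted genes, as mean log2 level of 352W and 353W minus that of 350W and 351W, was -0.07, with the 5th and 95th percentiles at -1.21 and 1.30. Gaps were wider on the higher side, where 33 genes were at least 4-fold apart, than on the lower side, where 10 were. At the edge of the rule, Arf6 stood just inside at 45.0 and 47.2 CPM in 352W and 353W, against 22.5 and 20.4 CPM in 350W and 351W. Ifitm1 fell just outside, at 611 and 516 CPM in 352W and 353W, against 1475 and 1221 CPM in 350W and 351W.

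**Figure D1:**
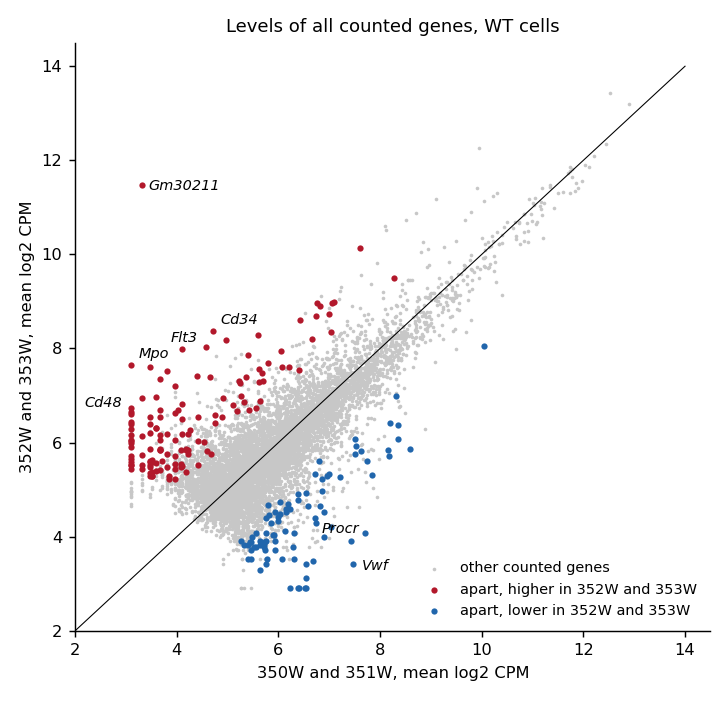
Mean log2 CPM of WT cells in 352W and 353W (vertical axis) against 350W and 351W (horizontal axis), 1 point per gene with 40 or more UMIs, with the line of equality. The 131 genes apart and higher (red) and the 87 apart and lower (blue) stand off the line, and the column of red points at the left is of genes under 3 UMIs in both 350W and 351W, drawn at 3.

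The pairs were not 2 uniform groups. Between 352W and 353W, 25.6% of counted genes differed by 2-fold or more, and between 350W and 351W 23.1% did. Across the pairs the share was 26.6% for 352W with 350W, 27.9% for 352W with 351W, 24.1% for 353W with 350W and 21.6% for 353W with 351W. Plates 353W and 351W, of different pairs, thus had the lowest share of the 6. By this share alone, plates differed as much within a pair as across. These 2 plates also had the most UMIs, and the part of depth in the share was not tested. The Spearman correlation of levels over the same genes was 0.643 for 352W with 353W and 0.657 for 350W with 351W. Across the pairs it was lower, from 0.5755 to 0.634.

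**Figure D2:**
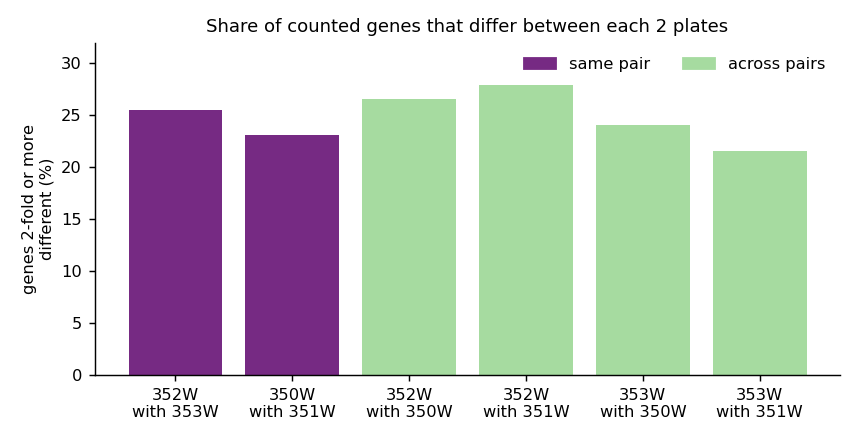
Percent of the 7924 counted genes that differed by 2-fold or more in level between WT cells of each 2 plates; bars are purple for plates of the same pair and green for plates across pairs. The shares lie between 21.6% and 27.9%, and those within a pair, 25.6% and 23.1%, lie among those across pairs.

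Genes of multipotent and lymphoid progenitors were higher in 352W and 353W, and Flt3 and Cd48 among them are markers that chose the pairs. Summed over the 21 genes of that list, the level was 2803 and 3157 CPM in 352W and 353W, against 1208 and 1377 CPM in 350W and 351W. Exact Poisson 95% intervals, which cover counting error only, ran from 2620 to 2996 and from 3004 to 3315 in 352W and 353W, against 1089 to 1337 and 1263 to 1498 in 350W and 351W. Of 18 members counted, 8 were apart and higher and none lower, beside 1.65% and 1.1% of all counted genes, and 14 did not overlap and were higher, beside 16.4%. The members' median difference was 1.28 on the log2 scale, beside -0.07 for all counted genes.

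Flt3, the cytokine receptor of early progenitors, was read at 376 and 171 CPM in 352W and 353W, against 0 and 30.5 CPM in 350W and 351W. A UMI of it was found in 59 and 40 cells of the first pair, and in 0 and 7 cells of the second. The count of 0 in 350W allows up to 9.64 CPM, taking 3 UMIs as the limit. Flt3 was thus high in both 352W and 353W and low in 350W and 351W, with no overlap, and 352W was more than 2 times 353W. Cd34, a sialomucin that adult mouse HSCs gain as they become progenitors, had 318 and 346 CPM in 352W and 353W, against 22.5 and 30.5 CPM in 350W and 351W. It was even within each pair, and its nearest plates were 10.4-fold apart. Cd48, the surface protein named in the sort, had 199 and 47.2 CPM in 352W and 353W, and 0 CPM in both 350W and 351W, where the depth allows up to 9.64 and 7.63 CPM. Its nearest plates were at least 4.90-fold apart, and most of its UMIs came from 352W.

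Lymphoid genes behaved less evenly within the pair. Dntt, which encodes the terminal transferase of antigen receptor joining, had 90.0 and 423 CPM in 352W and 353W, against 9.64 and 12.7 CPM in 350W and 351W. It was found in 18 and 70 cells of the first pair and in 3 and 5 of the second. Cd52, a small lipid-anchored protein of lymphocytes, had 280 and 120 CPM in 352W and 353W, against 3.21 and 20.4 CPM in 350W and 351W. Satb1, a chromatin organiser of lymphoid cells, had 270 and 94.5 CPM against 41.8 and 33.1 CPM in the same order. Which plate of the first pair was highest therefore changed from gene to gene, 352W for Flt3, Cd48, Cd52 and Satb1 and 353W for Dntt. Il7r, the interleukin-7 receptor of lymphoid progenitors, had 2 and 1 UMIs in 352W and 353W, against 0 and 1 in 350W and 351W. Rag2, of the recombinase that joins antigen receptor genes, had 14 and 1 UMIs in 352W and 353W, against 0 and 0 in 350W and 351W. Ccr9 and Tcf4, also of the list, overlapped between the pairs, and Tcf4, its most abundant member, had 328 and 506 CPM in 352W and 353W, against 485 and 476 CPM in 350W and 351W.

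**Figure D3:**
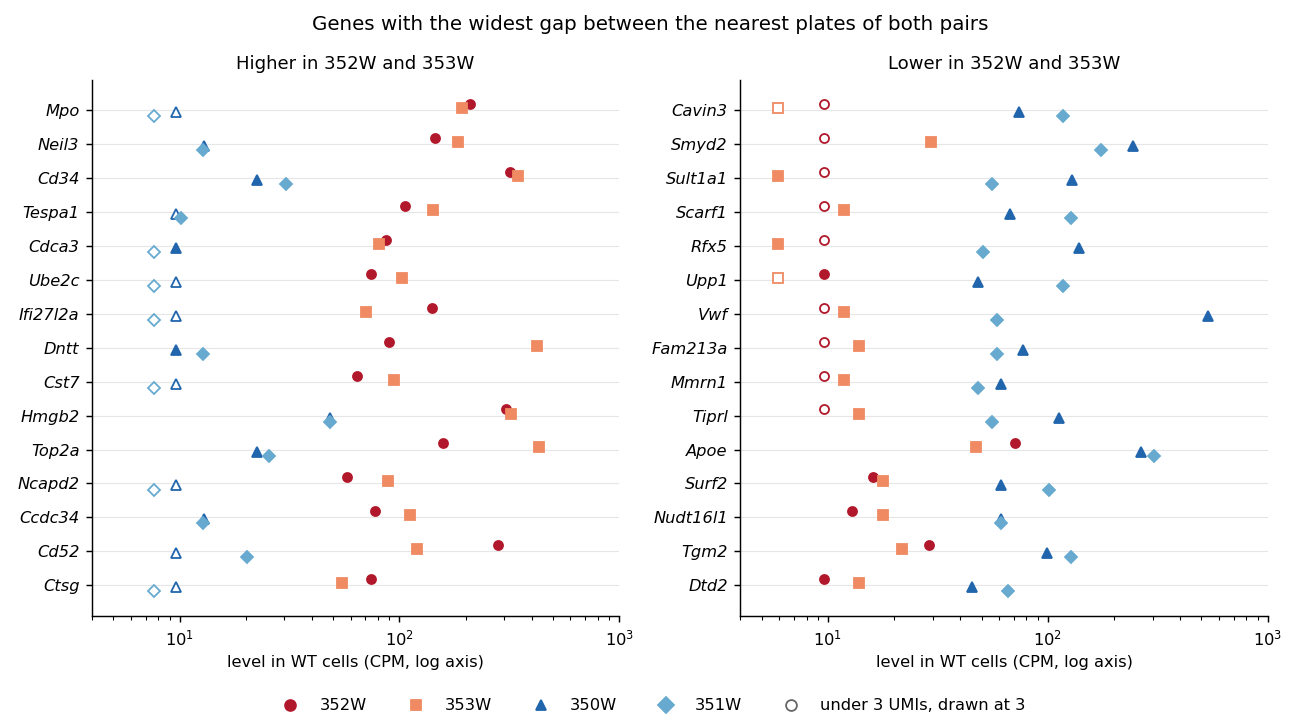
Level in CPM (log axis) in WT cells of each plate for the 15 genes with the widest gap between the nearest plates in each direction, unnamed and predicted genes aside; open symbols mark a plate with under 3 UMIs, drawn at 3. On the left, Mpo at 209 and 193 CPM in 352W and 353W has the widest gap, and on the right Vwf at 533 CPM in 350W stands far from 351W at 58.5 CPM.

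Of the myeloid list, 26 genes of granules, cytokine receptors and their regulators, 8 reached 40 UMIs, and 4 of these were apart and higher, beside 1.65% of all counted genes: Mpo, one of the markers that chose the pairs, Ctsg, Nkg7 and Plac8. None was apart and lower, beside 1.1%, and the counted members' median difference was 1.60 on the log2 scale. The summed level was 1659 and 1069 CPM in 352W and 353W, against 447 and 786 CPM in 350W and 351W. Mpo had 209 and 193 CPM in 352W and 353W and 0 CPM in both 350W and 351W, so the nearest plates were at least 20-fold apart. Its 65 UMIs in 352W lay in 15 cells, with 21 in a single cell, and its 98 UMIs in 353W lay in 35 cells. Ctsg, the granule protease cathepsin G, had 73.9 and 55.1 CPM in 352W and 353W and 0 CPM in the other plates. In 352W 14 of its 23 UMIs came from 1 cell, and in 353W 9 of its 28 did. Plac8 had 591 and 144 CPM in 352W and 353W, against 16.1 and 61.1 CPM in 350W and 351W, so its gap between nearest plates was 2.35-fold while 352W alone was far above the rest.

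Other myeloid genes were not apart. Of the 8 counted members 6 did not overlap and were higher, beside 16.4% of all counted genes, and 1 was lower, beside 18.8%. Prtn3, the granule proteinase 3, was in all plates. It was slightly higher with no overlap, at 264 and 264 CPM in 352W and 353W, against 238 and 193 CPM in 350W and 351W. Spi1, which encodes the transcription factor PU.1, did not overlap but was not 2-fold apart, at 83.6 and 138 CPM in 352W and 353W, against 48.2 and 50.9 CPM in 350W and 351W. Cebpa, a regulator of granulocyte fate, had 16 UMIs in 352W, 2 in 353W and 0 in both 350W and 351W, too few to be counted. Csf3r, the receptor of the granulocyte growth factor G-CSF, was nearly confined to 351W, at 16.1 and 29.5 CPM in 352W and 353W, against 0 and 343 CPM in 350W and 351W. It carried much of the 351W sum: without 351W the list's log2 difference was 1.58, beside 1.17 with all plates, and without 350W it was 0.76. The genes of late neutrophils S100a8, Ngp, Camp and Fcnb had no UMI in WT cells of any plate.

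**Figure D4:**
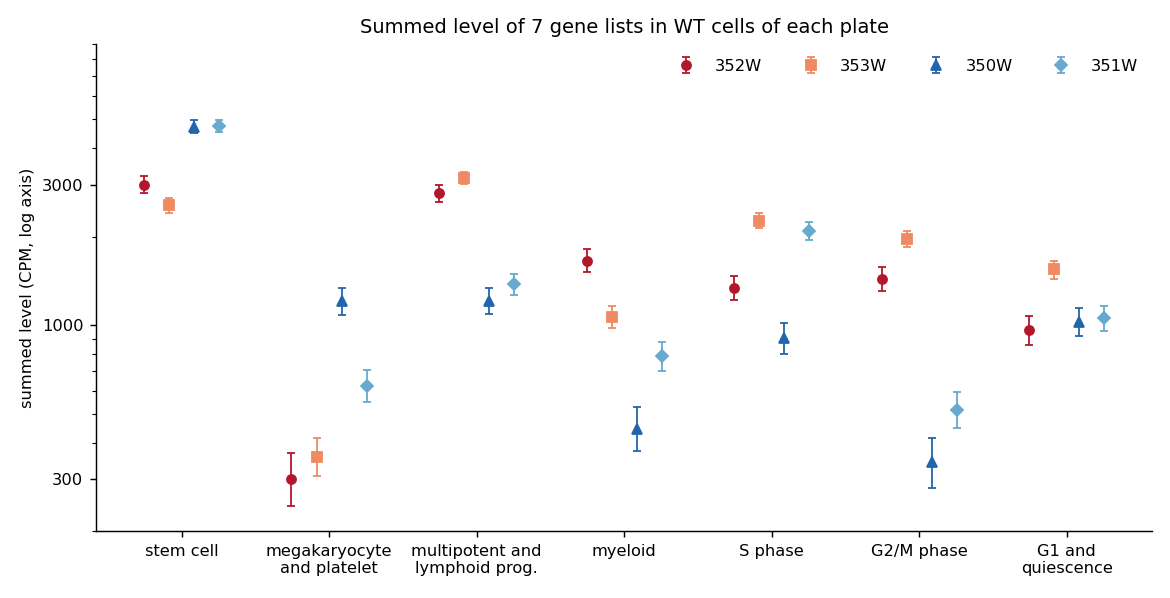
Summed level in CPM (log axis) of 7 gene lists in WT cells of each plate, with exact Poisson 95% intervals for counting error. The pairs do not overlap for 5 lists: 352W and 353W lie lower for the stem cell list and the megakaryocyte and platelet list, and higher for the multipotent and lymphoid progenitor, myeloid and G2/M lists; the pairs overlap for S phase, through Fen1 in 351W, and for G1 and quiescence.

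The summed level of stem cell genes was lower in 352W and 353W, and several of them, Slamf1 among them, had no UMI in at least 1 plate. The 25 genes of the list summed to 3002 and 2550 CPM in 352W and 353W, against 4717 and 4750 CPM in 350W and 351W, and the nearest plates were 1.57-fold apart. Of 18 members counted, 2 were apart and lower, Eng and Procr, and none higher, beside 1.1% and 1.65% of all genes, and 12 did not overlap and were lower, beside 18.8%. Their median difference was -0.80 on the log2 scale. Procr, the protein C receptor, had 16.1 and 27.6 CPM in 352W and 353W, against 77.1 and 142 CPM in 350W and 351W. Eng, the endoglin co-receptor of TGF-beta, had 54.6 and 66.9 CPM in 352W and 353W, against 199 and 170 CPM in 350W and 351W. Both genes were low in both plates of the first pair, with no overlap.

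Of the transcription factors that hold HSC identity, Hlf and Mecom differed less than Procr and Eng and were not apart. Hlf had 212 and 222 CPM in 352W and 353W, against 373 and 288 CPM in 350W and 351W, and Mecom had 106 and 126 CPM against 219 and 170 CPM in the same order. Gata2 was uneven in both pairs, at 22.5 and 76.8 CPM in 352W and 353W, against 292 and 102 CPM in 350W and 351W. Ifitm1 and Ifitm3, membrane proteins of antiviral defence, were the most abundant members, and Ifitm3 had 424 and 398 CPM in 352W and 353W, against 578 and 796 CPM in 350W and 351W. Kit, the stem cell factor receptor, which both HSCs and progenitors carry, overlapped at 267 and 201 CPM in 352W and 353W, against 225 and 249.4 CPM in 350W and 351W. Ly6a and Angpt1 overlapped too. Hoxa9, a homeobox factor of HSCs and progenitors, ran the other way, at 122 and 112 CPM in 352W and 353W, against 61.1 and 38.2 CPM in 350W and 351W.

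The megakaryocyte and platelet list summed to 302 and 358 CPM in 352W and 353W, against 1205 and 623 CPM in 350W and 351W. Of its 18 genes, 7 were counted, of which 3 were apart and lower, beside 1.1% of all counted genes, and 6 did not overlap and were lower, beside 18.8%. The 3 were Vwf, a marker that chose the pairs, Mmrn1 and Fli1. Vwf, the platelet-binding von Willebrand factor, had 6.43 and 11.8 CPM in 352W and 353W, against 533 and 58.5 CPM in 350W and 351W. It was found in 2 and 6 cells of the first pair, in 79 cells of 350W and in 13 of 351W. Vwf was low in 352W and 353W, but most of its excess lay in 350W alone: its log2 difference was -4.05 with all plates and -2.46 without 350W, and the list's was -1.40 with all plates and -0.92 without 350W. Mmrn1, a multimerin stored in platelet granules, had 0 and 11.8 CPM in 352W and 353W, against 61.1 and 48.3 CPM in 350W and 351W. Fli1, an ETS factor of megakaryocytes and HSCs, had 45.0 and 53.1 CPM against 109 and 114 CPM in the same order. Pf4, Gp1ba, Gp5 and Ppbp, genes of mature megakaryocytes, were each at or under 14 UMIs in every plate.

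Of the cell cycle lists, that for G2/M differed most between the pairs. For G2/M, the phase of mitotic entry and division, the 24 genes summed to 1434 and 1968 CPM in 352W and 353W, against 344 and 517 CPM in 350W and 351W. Of 13 members counted, 8 were apart and higher, beside 1.65% of all counted genes, and 11 did not overlap and were higher, beside 16.4%. None was lower in either count, and the median difference was 2.61 on the log2 scale. Hmgb2, a chromatin protein of dividing cells, was even within both pairs, at 305 and 321 CPM in 352W and 353W, against 48.2 and 48.3 CPM in 350W and 351W. Top2a, the topoisomerase that untangles chromosomes, had 158 and 433 CPM in 352W and 353W, against 22.5 and 25.4 CPM in 350W and 351W, and was found in 17 and 77 cells of the first pair and 5 and 7 of the second. Cdk1, the kinase of mitotic entry, had 64.3 and 246 CPM in 352W and 353W, against 9.64 and 15.3 CPM in 350W and 351W. Ube2c, which works with the anaphase-promoting complex, had 73.9 and 102 CPM in 352W and 353W, against 6.43 and 0 CPM in 350W and 351W. For Top2a and Cdk1 353W was well above 352W, while both plates stayed above the other pair. Mki67, the proliferation marker Ki-67, overlapped, at 83.6 and 45.3 CPM in 352W and 353W, against 6.43 and 96.7 CPM in 350W and 351W.

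For S phase, in which DNA is copied, the summed level overlapped between the pairs because of 1 gene in 1 plate. The 25 genes summed to 1341 and 2265 CPM in 352W and 353W, against 903 and 2086 CPM in 350W and 351W. The list's log2 difference was 0.34 with all plates, -0.26 without 350W and -0.03 without 353W. Fen1, the flap endonuclease of DNA replication, gave 373 of the 820 S phase UMIs of 351W, and stood at 32.1 and 25.6 CPM in 352W and 353W, against 64.3 and 949 CPM in 350W and 351W. Without Fen1 the list summed to 1308 and 2239.5 CPM in 352W and 353W, against 839 and 1137 CPM in 350W and 351W, higher with no overlap, and its log2 difference was 0.81, or 0.42 to 1.20 when a plate was left out as well. Its nearest plates, 352W and 351W, were then 1.15-fold apart, and their counting intervals, 1184 to 1442 and 1034 to 1248 CPM, overlapped. Hells, a chromatin remodeller, was as uneven in 353W, at 45.0 and 399 CPM in 352W and 353W, against 6.43 and 25.4 CPM in 350W and 351W. Among 17 counted members 7 did not overlap and were higher and 1, Fen1, was lower, beside 16.4% and 18.8% of all counted genes. A single member was apart and higher, Dut, the enzyme that keeps uracil out of DNA, beside 1.65% of all counted genes. Dut had 186 and 207 CPM in 352W and 353W, against 73.9 and 73.8 CPM in 350W and 351W. Pcna, the sliding clamp of DNA polymerase, did not overlap, at 283 and 201 CPM in 352W and 353W, against 119 and 155 CPM in 350W and 351W.

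The list for G1 and quiescence overlapped too, at 961 and 1547 CPM in 352W and 353W, against 1028 and 1056 CPM in 350W and 351W. Its log2 difference was 0.23 with all plates and -0.12 without 353W. Of its 10 counted members, 2 were apart and higher, Cdk6 and Btg1, beside 1.65% of all counted genes. None was apart and lower, beside 1.1%. Cdk6, a kinase of G1 that drives exit from quiescence, had 231 and 236 CPM in 352W and 353W, against 35.3 and 50.9 CPM in 350W and 351W, and Btg1, an antiproliferative factor, had 61.1 and 41.3 CPM against 9.64 and 7.63 CPM. Ccnd3, a D-type cyclin, was lower and did not overlap, at 103 and 161 CPM in 352W and 353W, against 244 and 239 CPM in 350W and 351W. The inhibitor Cdkn1c, which holds HSCs out of cycle, had 4 and 1 UMIs in 352W and 353W, against 8 and 13 in 350W and 351W, and was too low to be counted.

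Depth per cell differed between plates, so each cell of at least 1000 UMIs was thinned to 1000, which kept 95, 93, 94 and 95 cells of 352W, 353W, 350W and 351W. At that depth a WT cell had on average 1.07 and 1.68 UMIs of the G2/M list in 352W and 353W, against 0.287 and 0.484 in 350W and 351W. Cells with 3 or more were 12 of 95 (12.6%, exact binomial 95% interval 6.70 to 21.0) in 352W and 23 of 93 (24.7%, 16.4 to 34.8) in 353W. In 350W they were 0 of 94 (0%, up to 3.85) and in 351W 3 of 95 (3.16%, 0.656 to 8.95). For the S phase list the share was 14.7% and 33.3% in 352W and 353W, against 6.38% and 34.7% in 350W and 351W. Without Fen1, which was found in 94 of the 96 cells of 351W, the S phase share was 12.6% and 32.3% in 352W and 353W, against 5.32% and 11.6% in 350W and 351W. Cells rich in G2/M transcripts were thus more frequent in both 352W and 353W. The intervals of 352W (6.70 to 21.0) and 351W (0.656 to 8.95) overlapped, however. Cells rich in S phase transcripts other than Fen1 were most frequent in 353W, while the intervals of 352W (6.70 to 21.0) and 351W (5.92 to 19.8) overlapped.

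**Figure D5:**
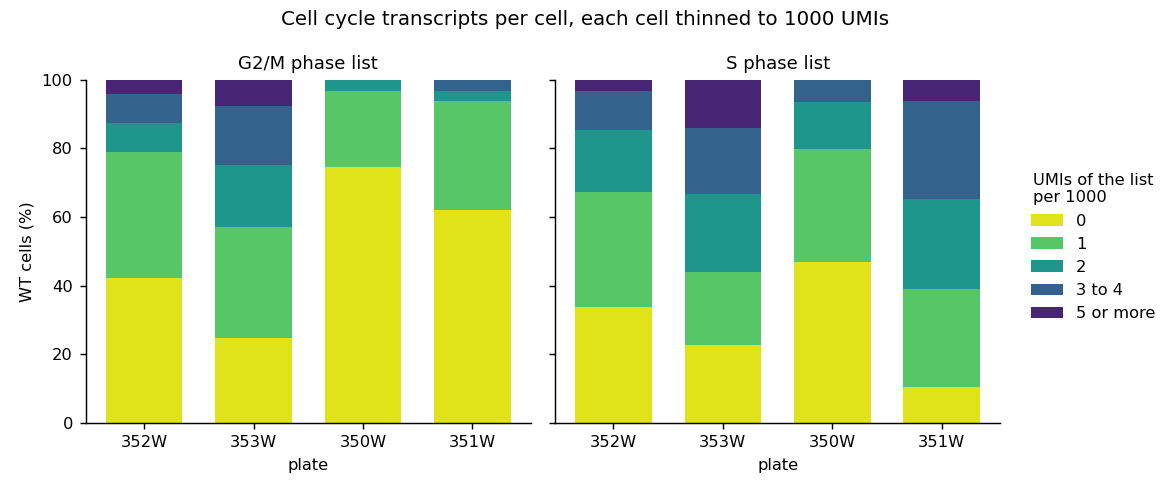
Percent of WT cells in each plate by the number of UMIs of the G2/M list (left) and the S phase list (right), after each cell was thinned to 1000 UMIs. Cells with 3 or more G2/M UMIs make up 12.6% and 24.7% in 352W and 353W, against 0% and 3.16% in 350W and 351W, and on the right 353W and 351W are alike at 33.3% and 34.7%, which in 351W rests on Fen1.

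Within 352W and 353W the progenitor transcripts were found in many wells. Immunoglobulin UMIs were in nearly every well of these plates too, so some of these UMIs may come from free RNA, which was not tested. Flt3, Cd48 and Mpo are markers that chose the pairs, and Cd34 was among the genes with the widest gaps. The shares of cells with them therefore differ between the pairs by choice, and the intervals cover counting only. After thinning, a UMI of Flt3, Cd48, Cd34 or Mpo was found in 57 of 95 cells (60%, exact interval 49.4 to 69.9) of 352W and 47 of 93 (50.5%, 39.97 to 61.1) of 353W, against 0 of 94 (0%, up to 3.85) of 350W and 4 of 95 (4.21%, 1.16 to 10.4) of 351W. Without thinning the counts were 79 of 95 and 87 of 95, against 4 of 95 and 13 of 96. Cells of 352W with such a UMI had 3070.2 CPM of the stem cell list, against 3342 CPM in cells without one, and in 353W the values were 2255 and 2891 CPM. Their counting intervals overlapped in both plates. As sequenced the intervals did not overlap: 2674 to 3085 CPM in cells with a UMI and 3221 to 4380.3 CPM in cells without one in 352W, and 2350.2 to 2637 and 2780.1 to 4022 CPM in 353W, where the cells without one were 16 and 8. Cells without such a UMI in 350W and 351W had 4979 and 4879 CPM after thinning, and 4744 and 4829 CPM as sequenced. The cells of 352W and 353W in which none of these 4 transcripts was seen were lower in stem cell transcripts than such cells of 350W and 351W. That is a description of plates paired by levels in these same cells. At 1000 UMIs a missing transcript does not show that a cell lacks it. As sequenced, 12 of the 15 cells of 352W with a UMI of Mpo (80%) and 20 of the 35 of 353W (57.1%) also held one of Flt3, beside 58.8% and 33.3% of the cells without Mpo. After thinning it was 3 of 6 and 3 of 11, too few to compare.

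Among the other genes with the widest gaps on the higher side were 3 of chromosome segregation and repair. Neil3, a DNA glycosylase of dividing cells, had 145 and 185 CPM in 352W and 353W, against 12.9 and 12.7 CPM in 350W and 351W. Cdca3, a cell division gene, had 86.8 and 80.7 CPM against 9.64 and 5.09 CPM, and the condensin subunit Ncapd2 had 57.9 and 88.6 CPM against 3.21 and 0 CPM. Cst7, the protease inhibitor cystatin F of blood cells, had 64.3 and 94.5 CPM in 352W and 353W and 0 CPM in the other pair. Tespa1, a gene of T cell receptor signalling, had 106 and 142 CPM in 352W and 353W, against 0 and 10.2 CPM in 350W and 351W, but 39 of its 72 UMIs in 353W came from 1 cell.

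On the lower side the 15 widest gaps included Vwf and Mmrn1, described above. Sult1a1, a sulfotransferase, had 3.21 and 5.90 CPM in 352W and 353W, against 129 and 56.0 CPM in 350W and 351W. Scarf1, a scavenger receptor, had 6.43 and 11.8 CPM against 67.5 and 127 CPM, and Upp1, a uridine phosphorylase, had 9.64 and 0 CPM against 48.2 and 117 CPM in the same order. Apoe, the lipid carrier apolipoprotein E, stood at 70.7 and 47.2 CPM in 352W and 353W, against 267 and 305 CPM in 350W and 351W. Smyd2, a lysine methyltransferase, had 0 and 29.5 CPM in 352W and 353W, against 244 and 176 CPM in 350W and 351W. Cavin3, a coat protein of caveolae, had 6.43 and 0 CPM against 73.9 and 117 CPM, and Tgm2, a transglutaminase, had 28.9 and 21.6 CPM against 99.6 and 127 CPM. Rfx5, a regulator of class II antigen presentation genes, had 0 and 5.90 CPM in 352W and 353W, against 138 and 50.9 CPM in 350W and 351W. Each of these 8 genes was lower in both 352W and 353W than in either plate of the other pair.

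Lists of markers of B cells, of T and NK cells, of mast cells and basophils, and of endothelial and stromal cells overlapped between the pairs. No counted member was apart, beside 1.65% higher and 1.1% lower of all counted genes. The B cell list summed to 129 and 94.5 CPM in 352W and 353W, against 86.8 and 130 CPM in 350W and 351W. Cd79a, a defining gene of the B cell receptor complex, had 3 and 1 UMIs in 352W and 353W, against 0 and 0 in 350W and 351W. The T and NK cell list summed to 106 and 144 CPM in 352W and 353W, against 119 and 104 CPM in 350W and 351W, with no UMI of Trbc2 or Il2rb. The endothelial and stromal list summed to 138 and 102 CPM against 96.4 and 262 CPM. The mast and basophil list was highest in 352W, at 154 and 47.2 CPM in 352W and 353W, against 54.6 and 30.5 CPM in 350W and 351W, and 22 of the 34 Cpa3 UMIs of 352W came from 1 cell. Sorted cells of 352W and 353W thus held immunoglobulin transcripts while the summed B cell list overlapped with that of the other pair.

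Monocyte and dendritic cell genes summed to 836 and 1076 CPM in 352W and 353W, against 1289 and 1120 CPM in 350W and 351W, lower with no overlap. Of 6 counted members 1, the class II antigen presentation gene H2-Aa, was apart and lower, beside 1.1% of all counted genes. It had 10 and 43 UMIs in 352W and 353W, against 103 and 98 in 350W and 351W. No member was apart and higher, beside 1.65%, and the dendritic markers Itgax and Siglech had no UMI. The erythroid list was also lower, at 691 and 644 CPM in 352W and 353W, against 1218 and 1081 CPM in 350W and 351W. That difference lay in Car2, a carbonic anhydrase, at 444 and 346 CPM in 352W and 353W, against 999 and 789 CPM in 350W and 351W, and without Car2 the list's log2 difference was 0.10. Interferon response genes summed to 456 and 606 CPM in 352W and 353W, against 656 and 718 CPM in 350W and 351W. The nearest plates were 1.08-fold apart, and none of 7 counted members was apart, beside 1.65% higher and 1.1% lower of all counted genes. Ifi27l2a, a gene named for interferon induction but not in that list, ran the other way. It was among the widest gaps on the higher side, at 141 and 70.8 CPM in 352W and 353W, against 0 and 2.54 CPM in 350W and 351W. Immediate early genes, which mark handling stress, overlapped at 871 and 706 CPM in 352W and 353W, against 797 and 1056 CPM in 350W and 351W. Housekeeping genes overlapped too, at 9528 and 8868 CPM in 352W and 353W, against 8985 and 7722 CPM in 350W and 351W.

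The KO cells of the same plates, which share plate and table with the WT cells, gave 112 of 6133 counted genes apart and higher (1.83%) and 66 apart and lower (1.08%). Of the 131 genes apart and higher in WT cells, 53 were so in KO cells too. Of the 87 apart and lower, 24 were so in KO cells. No minimum of UMIs in KO cells was set for these 53 and 24 genes. In KO cells Flt3 had 372 and 155 CPM in 352W and 353W, against 18.1 and 6.42 CPM in 350W and 351W, and Mpo had 161 and 197 CPM against 0 and 0 CPM. Vwf had 4.59 and 23.6 CPM in KO cells of 352W and 353W, against 479 and 32.1 CPM in 350W and 351W. The summed levels in KO cells were 2871 and 2651 CPM for the stem cell list in 352W and 353W, against 4593 and 4844 CPM in 350W and 351W. For the G2/M list they were 1672 and 2006 CPM, against 520 and 597 CPM. The levels of single plates, including the excess of Vwf in 350W, Csf3r in 351W at 257 CPM and Fen1 in 351W at 898 CPM, were thus found in the cells of both names.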

How the data were processed

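Whole-number UMI counts per gene and cell were deposited by the authors as 1 table per plate, without normalization. The labels name the MARS-Seq protocol, and the submitters' processing notes name the build GRCm38.p4 and FastQC. The aligner is not given in the sources used here, and nor is the counter.

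The genotype of a cell was read from the prefix of its column name. Cells with 500 or more UMIs were kept, with no doublet calling, and genes were left out as the report says. Counts were summed per plate and expressed as CPM. Symbols were matched for 25714 of 25832 gene IDs. The log2 difference, the intervals and the thinning to 1000 UMIs per cell are as the report describes, and a count under 3 was raised to 3 in log2 differences and folds. Python 3.11.15, numpy 2.4.6, scipy 1.17.1 and pandas 2.3.3 were used, with scaling factors from edgeR 4.0.16 (TMM) and DESeq2 1.42.0 as alternatives. No test was run, because measured values had paired the plates. The rule for genes apart was tried on simulated counts with known folds, as a check of the code only.

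The members and the 17 gene lists were chosen with earlier results of these data known. Genes named were the 4 markers, the 15 widest gaps per direction and the 6 most abundant counted members of the 7 main lists, or 2 of other lists; further list members, Procr, Slamf1, Cebpa, Phf19, Gm30211 and the genes at the edge of the rule were chosen after their values were seen. The ChIP-seq, bulk RNA-seq and ATAC-seq samples were not used here. Whether replicate plates came from separate animals is not stated. Intervals cover counting error only.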

Additional observations from a re-analysis of the deposited data

Results flagged for a closer look

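In 9 of 109 levels examined over the 4 plates, 1 plate stood apart from the others by more than a fixed share of the range, which chance alone gives for about 1 in 20. For Vwf this was 350W, at 533 CPM, and for Csf3r and Fen1 it was 351W, at 343 and 949 CPM. For Hells it was 353W, at 399 CPM, and for the summed G1 and quiescence list it was also 353W, at 1547 CPM. In 352W, Tcf4 was low at 328 CPM and Lyz2 at 41.8 CPM, while Tpsb2 was high at 41.8 CPM, with 12 of its 13 UMIs in 1 cell, and Cebpa at 51.4 CPM. Immunoglobulin transcripts, which the comparison leaves out, took 2.05% of the UMIs of WT cells in 352W and 0.386% in 353W, against 0.00481% in 350W and 0.00152% in 351W. A single cell held 1429 of the 6498 immunoglobulin UMIs of 352W and another 1363 of the 1973 of 353W.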

How the results depend on the processing

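The 131 genes apart and higher and 87 apart and lower became 316 and 283 at a limit of 1.5-fold, 33 and 10 at 4-fold, 241 and 176 with a gene minimum of 1 UMI, 239 and 170 with 20, and 52 and 32 with 100. Leaving out 1 plate gave 423 to 577 genes higher and 244 to 600 lower, since fewer plates then had to differ. Both counts stayed within 1.5 times under TMM and DESeq2 scaling, other cell minimums, immunoglobulin genes kept, thinned plates, a mean over cells, and each gene without its top cell. The last of these, and the lists without their most abundant member, were added after seeing the data. Without that member the log2 difference of the multipotent and lymphoid list was 1.67 (Tcf4 left out), that of the stem cell list -0.62 (Ifitm1), that of the S phase list 0.81 (Fen1, 0.34 with it), and that of the erythroid list turned to 0.10 (Car2). Leaving out 1 plate gave log2 differences of -0.89 to -0.66 for the stem cell list, 1.11 to 1.30 for multipotent and lymphoid, and 1.70 to 2.29 for G2/M. Of 728 values for named genes under alternatives other than leaving out a plate, 35 moved by more than the spread between plates. Among genes called apart 0 changed direction. With a plate left out a value cannot move by more than that spread, so those values were not counted here. No paired analysis was possible because the plates carry no replicate numbers in the labels and the results come from no test.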

Other observations

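Histone genes, a family chosen after values were seen, were higher in 352W and 353W. Their summed level was 10290.1 and 6551 CPM in 352W and 353W, against 2417 and 3158 CPM in 350W and 351W. Of 25 counted, 12 were apart and higher, beside 1.65% of all counted genes, and none lower, beside 1.1%, and their median difference was 1.88 on the log2 scale. Some counts were nearly equal: Hist1h2aa had 277 and 143 UMIs in 352W and 353W, and Hist3h2a had 271 and 147. Trim17, outside the family, had 271 and 150. Whether the same transcripts were counted under several genes was not tested, so the 12 may not be separate. Of 81 counted ribosomal protein genes, none was apart, beside 1.65% higher and 1.1% lower of all counted genes.

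Xist, the RNA that silences an X chromosome in female cells, was apart and higher, at 257 and 240 CPM in 352W and 353W, against 61.1 and 71.2 CPM in 350W and 351W. The Y-linked Ddx3y overlapped, at 158 and 140 CPM in 352W and 353W, against 132 and 173 CPM in 350W and 351W. Cells with a UMI both of Xist and of a Y-linked gene numbered 19 and 37 in 352W and 353W, against 5 and 8 in 350W and 351W. The sex-linked list summed to 534 and 461 CPM in 352W and 353W, against 269.9 and 288 CPM in 350W and 351W. The labels give no sex.

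The widest gap of all counted genes was that of Gm30211, a long noncoding RNA that follows Igkc, the constant region of the kappa light chain, in the RefSeq gene order. It had 1480 and 875 UMIs in 352W and 353W, against 4 and 0 in 350W and 351W. In 352W 432 of them came from 1 cell, and the cell with the most immunoglobulin UMIs held 11. In 353W 579 of them came from the cell that also held the most immunoglobulin UMIs, and without the top cell of each plate its level was 3369 and 583 CPM in 352W and 353W, against 3.21 and 0 CPM in 350W and 351W. It was found in 93 and 87 cells of 352W and 353W, against 2 and 0 of 350W and 351W.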
